A study of Mus musculus with 3 samples.

Results

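The collagen genes were taken as every gene of the deposited single-cell matrix whose symbol has the form Col, a type number, the letter a and a chain number. This gave 43 of 24335 genes: 11 chains of fibrillar collagens, 6 chains of type IV collagen, the network of basement membranes, and 26 chains of other types. The cells came from the epididymis of untreated wild-type mice, 56 days old, of the strain given as C57BL/6 in the sample labels and C57Bl/6J in the design text. The organ was cut into caput, corpus and cauda, and each of the 3 regions was made into 1 single-cell library. The libraries were made with the Singleron GEXSCOPE kit and sequenced on a HiSeq X10. The labels do not say whether animals were pooled. With 1 library per region no test of a region was possible, and each interval printed is a 95% interval that covers counting error only.

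Collagens are secreted proteins whose chains wind around each other in a helix of repeated glycine triplets. Fibrillar collagens (types I, III and V) form the tensile fibres of connective tissue and are made mainly by fibroblasts, while type IV collagen forms the sheet under epithelia and around muscle and vessels. Type VI collagen forms beaded filaments, types XII, XIV and XVI sit on fibril surfaces, types XV and XVIII are proteoglycans near basement membranes, and types VII and XVII fasten basal epithelial cells to their basement membrane. In the epididymis a tube of epithelium is wrapped in fibroblasts and in smooth muscle, and the muscle coat is known to thicken towards the cauda.

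Cells were assigned by markers, none of them a collagen. A cell entered the gate (fibroblast, smooth muscle, endothelial, epithelial or immune) of which it had the most markers detected out of 10, where it had at least 3 and at least 2 more than of any other list. The fibroblast gate held 186 caput, 514 corpus and 1715 cauda cells, and the epithelial gate held 3546, 2154 and 508. The smooth muscle gate held 102, 38 and 59 cells and the endothelial gate 264, 60 and 17, and the immune gate held 158, 570 and 792. Regions or gates were compared where both groups had at least 50 cells. Levels are counts of unique molecular identifiers (UMIs) summed over a gate's cells per 1000000 UMIs of these cells (CPM). A difference was called by size when 3 conditions held: a ratio of 4 or more, an interval that left out 2, and 100 or more UMIs in the group with the higher level.

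The libraries held 41500792 caput, 21495211 corpus and 18341476 cauda UMIs in 4961, 4959 and 4925 cells, and 14 to 21 cell barcodes were shared by any pair of libraries. The share of cells with more than 20% mitochondrial UMIs was 3.38% in the caput library, 28.5% in the corpus and 25.9% in the cauda library. All 10 markers of each gate were detected in it, and the fibroblast markers summed to 18834, 20168 and 25778 CPM in the fibroblast gate. They summed to 1923, 1602 and 3352 CPM in the smooth muscle gate and to 269, 668 and 1982 CPM in the immune gate. Markers of lymphatic vessels summed to 401 CPM in the caput endothelial gate and to 4890 CPM in the corpus one. Pericyte markers summed to 1315 and 84.4 CPM in these gates and to 1389 CPM in caput smooth muscle. These values stand beside the endothelial results. Cells carrying markers of 2 gates within the margin were left ungated, as were cells with under 3 markers of every list. Ungated cells numbered 683 in caput, 1495 in corpus and 1694 in cauda, or 13.8%, 30.9% and 35.4% of kept cells. They held 18.1%, 13.1% and 11.9% of the collagen UMIs. Of these cells 6.88%, 45.5% and 49.4% had more than 20% mitochondrial UMIs. No doublet caller was run, so the number of doublets left in the gates is unknown. Immune cells are not known as a source of fibrillar collagen, so the immune gate was taken as the comparison for free RNA in each library.

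The genes lie apart in the genome, with a few neighbouring pairs. On GRCm38.p6 in RefSeq, Col1a1 is at chr11:94936224-94953042, Col1a2 at chr6:4505618-4541543, Col3a1 at chr1:45311538-45349706, Col18a1 at chr10:77052178-77166530 and Col17a1 at chr19:47646341-47692042. Col4a1 and Col4a2 start 21 bases apart on opposite strands of chromosome 8, and Col4a5 and Col4a6 start 1343 bases apart on opposite strands of chromosome X. Col6a4, Col6a5 and Col6a6 follow each other on the minus strand of chromosome 9, with starts 136048 and 132558 bases apart.

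Upstream sequence is shown for 4 members on which the results turn. Col1a2 and Col3a1 are fibrillar chains with high counts, Col6a5 was past the size rule between regions in fibroblasts, and Col18a1 was higher in basal cells of every region. Each stretch lies upstream of the gene's start in RefSeq (GRCm38.p6), holds no exon of GENCODE M21 and is written 5′ to 3′ on the gene's strand. Capitals mark the TATA box motif TATAAA, the CAAT box motif CCAAT and the GC box motif GGGCGG, searched on both strands. GC boxes on the other strand read as the reverse complement, and no marked motifs overlap. The stretches are chr6:4505370-4505492 (plus strand), chr1:45311388-45311537 (plus), chr9:105960644-105960793 (minus) and chr10:77166549-77166698 (minus), in the order of the lines. The Col1a2 stretch ends 125 bases before the start and the Col18a1 stretch 18 bases before it. RefSeq's span of the Col6a5 gene, chr9:105856070-105962463, reaches past the start used here, so the Col6a5 stretch lies inside that span.
Col1a2: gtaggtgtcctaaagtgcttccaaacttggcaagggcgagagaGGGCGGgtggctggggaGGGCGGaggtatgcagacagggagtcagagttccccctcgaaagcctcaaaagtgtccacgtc
Col3a1: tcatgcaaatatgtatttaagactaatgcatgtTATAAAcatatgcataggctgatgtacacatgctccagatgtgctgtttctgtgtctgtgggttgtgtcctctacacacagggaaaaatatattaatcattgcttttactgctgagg
Col6a5: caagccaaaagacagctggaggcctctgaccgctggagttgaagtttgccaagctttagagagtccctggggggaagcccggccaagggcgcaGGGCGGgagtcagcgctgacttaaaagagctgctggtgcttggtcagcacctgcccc
Col18a1: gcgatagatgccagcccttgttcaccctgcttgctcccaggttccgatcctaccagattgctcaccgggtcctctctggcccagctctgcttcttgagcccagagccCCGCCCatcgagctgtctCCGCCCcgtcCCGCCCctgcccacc

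The Col1a2 stretch holds GGGCGG 2 times, Col6a5 1 time and Col18a1 3 times, while Col3a1 holds TATAAA 1 time. RefSeq gave windows of 250 bases before a start for 35 of the 43 members, 38 windows in all. GGGCGG was found in 57.9% of these windows and in 32.7% of all 32851 windows. TATAAA was found in 13.2% against 12.4%, and CCAAT in 34.2% against 33.8%. These are matches of letters and say nothing of binding.

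Fibrillar chains made up most of the collagen UMIs in fibroblasts, and their summed level was higher in the cauda. The 11 fibrillar chains summed to 28697 CPM in caput, 36064 in corpus and 63749 in cauda fibroblasts. The cauda sum was 2.22 times the caput sum (interval 2.19 to 2.25) and 1.77 times the corpus sum (1.75 to 1.78), both under the size rule of 4. In the same gate the share of cells with more than 20% mitochondrial UMIs was 0%, 4.47% and 12.9%, and the 10 immune markers, all detected, summed to 271, 2277 and 2805 CPM. Without the cells over 20% mitochondrial UMIs the caput to cauda ratio was 0.440, against 0.450 with them. The part of the immune markers was not tested. Their list summed to 616, 12428 and 24354 CPM in the epithelial gate and to 7098, 9954 and 9808 CPM in the immune gate. Its sum therefore does not measure immune cells alone. All collagens together took 3.31%, 4.10% and 7.12% of the fibroblast gate's UMIs. Over single cells, the median share of a fibroblast's UMIs that were collagen was 2.11% in caput, 3.12% in corpus and 5.72% in cauda.

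The type IV sum did not follow this order. It was 902 CPM in caput, 729 in corpus and 779 in cauda fibroblasts, so the caput sum was 1.16 times the cauda sum (1.07 to 1.25). The 26 other chains summed to 3487, 4168 and 6627 CPM, with a cauda sum 1.90 times the caput sum (1.83 to 1.98).

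**Figure D1:**
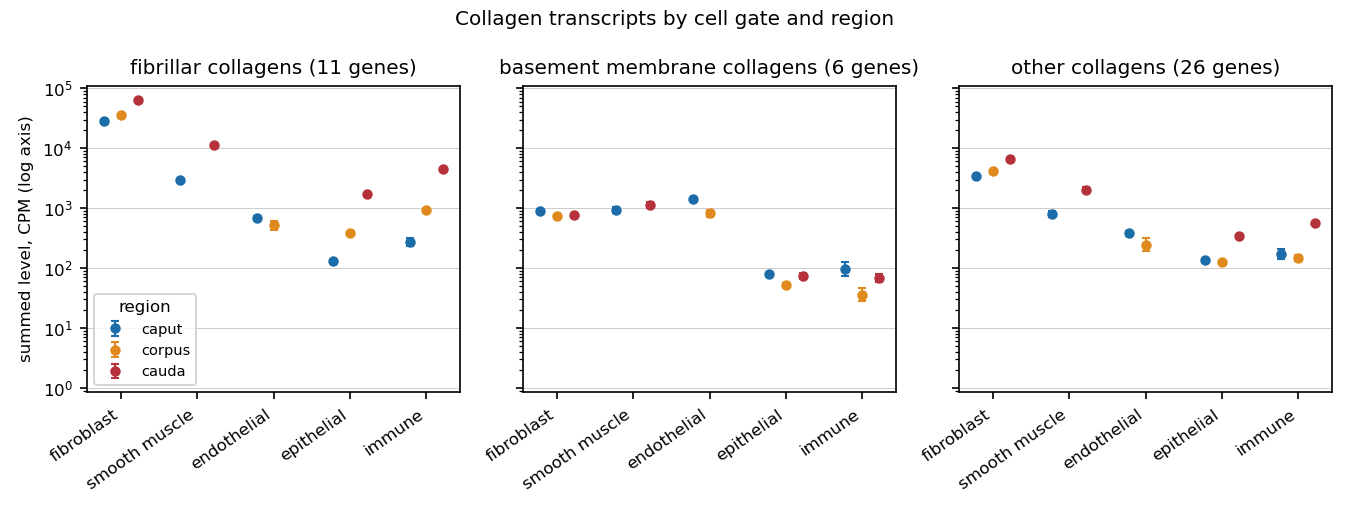
Summed level of fibrillar, basement membrane (type IV) and other collagens in each gate (columns of points) and region (colours), in CPM on a log axis, with exact Poisson 95% intervals that cover counting error only. Fibrillar sums are highest in the fibroblast gate of every region, while the type IV sums of fibroblasts, smooth muscle and endothelium lie between 729 and 1405 CPM and the epithelial and immune sums below 100 CPM; groups under 50 cells are not drawn.

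Gates ranked differently for the groups of chains. In the caput the fibrillar sum of fibroblasts was 9.76 times that of smooth muscle (9.20 to 10.4), 41.3 times that of endothelium (39.1 to 43.7) and 216 times that of epithelium (209 to 223). The type IV sum of caput endothelium, 1405 CPM, was in contrast 1.56 times that of fibroblasts (1.43 to 1.70) and 17.7 times that of epithelium (16.7 to 18.6). The caput type IV sums of fibroblasts and smooth muscle were 902 and 929 CPM, a ratio of 0.971 (0.855 to 1.10) that became 1.20 with TMM scaling. Among all type IV UMIs of the caput library, 34.2% came from the endothelial gate and 35.3% from the epithelial gate. These gates held 5.35% and 71.8% of the library's kept cells. Of the cauda library's type IV UMIs 73.3% came from the fibroblast gate, which also held 35.8% of its cells.

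Of the 43 members, 29 had at least 100 UMIs in some gate and region. Of these 29, 15 had their highest level in fibroblasts in all 3 regions, among the gates with at least 50 cells there. The 15 are Col1a1, Col1a2, Col3a1, Col5a1, Col5a2, Col5a3, Col6a1, Col6a2, Col6a3, Col6a5, Col6a6, Col14a1, Col15a1, Col16a1 and Col4a5. Corpus smooth muscle and cauda endothelium had fewer cells and were left out of this order, so only fibroblasts and epithelium could lead in all 3 regions, and no member was highest in epithelium in all 3.

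**Figure D2:**
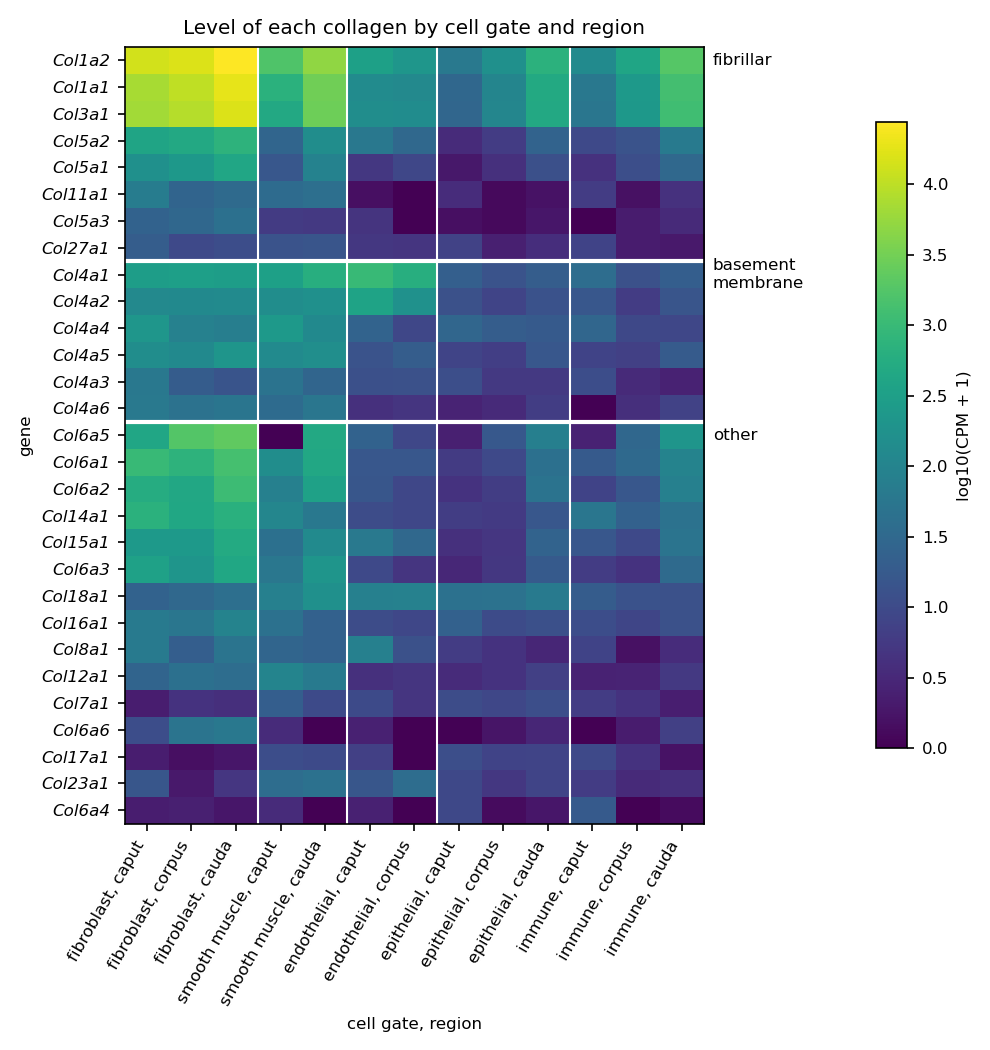
Level of each of the 29 members with at least 100 UMIs in some gate and region, as log10(CPM + 1) on a colour scale, with genes in rows by group and gates by region (groups of at least 50 cells) in columns. The Col1a1, Col1a2, Col3a1, Col6a1 and Col6a2 rows are brightest in the fibroblast columns, Col4a1 and Col4a2 are brightest in the caput endothelial column, and Col17a1 and Col7a1 are low in all columns.

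Among fibrillar chains, type I and type III had the highest counts. Col1a1, the alpha-1 chain of type I collagen, was at 7382 CPM in caput, 10227 in corpus and 18866 in cauda fibroblasts. Its cauda level was 2.56 times the caput level (2.49 to 2.62). Col1a2, its alpha-2 partner, was at 13980, 16042 and 27658 CPM (cauda to caput 1.98, 1.94 to 2.02), and Col3a1, the only chain of type III collagen, at 6655, 9028 and 15970 CPM (2.40, 2.33 to 2.47). Caput was lowest and cauda highest for all 3 genes.

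Type V collagen, which joins type I fibrils and limits their width, had the same order. Col5a1 was at 172, 232 and 417 CPM and Col5a2 at 391, 471 and 752 CPM in caput, corpus and cauda fibroblasts, and Col5a3 at 23.5, 29.2 and 41.8 CPM. Other minor chains were highest in caput. Col11a1, a minor fibrillar chain best known from cartilage, was at 73.0 CPM in caput, 25.7 in corpus and 33.2 in cauda fibroblasts, and Col27a1 at 19.6, 8.41 and 10.2 CPM on 15, 17 and 70 UMIs. Col2a1, the cartilage collagen, had 6 UMIs in all cells.

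The 2 chains of type I collagen also differed in proportion between regions. The ratio of Col1a2 to Col1a1 UMIs in fibroblasts was 1.89 in caput (1.83 to 1.96), 1.57 in corpus (1.54 to 1.60) and 1.47 in cauda (1.46 to 1.48). This is a ratio of counts and not of chains per length. The same order was seen in the immune gate, at 2.29, 1.64 and 1.44, and in the epithelial gate, at 2.04, 1.66 and 1.39. In smooth muscle the ratio was 2.40 in caput (2.09 to 2.78), 2.66 in corpus (2.09 to 3.42) and 1.69 in cauda (1.53 to 1.86). The caput and corpus intervals overlapped there, and the corpus gate held 38 cells, so their order is not read.

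**Figure D3:**
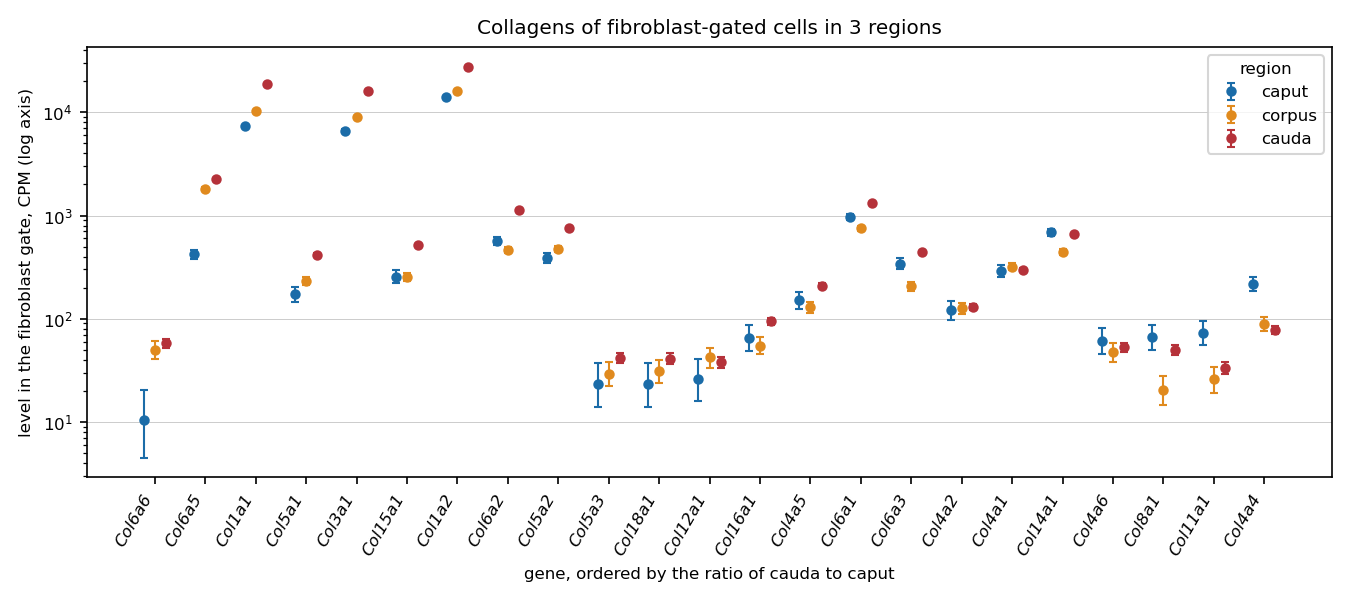
Level of collagens in the fibroblast gate, in CPM on a log axis, for caput, corpus and cauda, with exact Poisson 95% intervals for counting error. Most members lie within a factor of 4 across the regions, and Col6a5 and Col6a6 stand lower in caput than in corpus and cauda.

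The regional differences past the size rule in fibroblasts were those of a pair of type VI chains. Of the 17 members with enough UMIs in the caput and corpus comparison, 2 (Col6a5 and Col6a6) were called higher in corpus and none higher in caput, beside 2.45% and 1.98% of all genes tested. Of 23 members in the caput and cauda comparison the same 2 were called higher in cauda and none in caput, beside 2.33% and 1.13% of all genes. Between corpus and cauda no member of 23 was called in either direction, beside 0.877% of genes higher in cauda and 0.658% higher in corpus. A member entered a count only where it had 100 UMIs in one of the 2 groups, so low members could enter only through a group where they were high. The median log2 ratio of caput to cauda was -0.54 over the 23 members and -0.01 over all genes.

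Col6a5 encodes an alternative long chain of type VI collagen. It was at 420 CPM in caput (322 UMIs), 1824 in corpus (3686 UMIs) and 2253 in cauda fibroblasts (15456 UMIs). The corpus level was 4.35 times the caput level (3.88 to 4.89), the cauda level 5.37 times (4.81 to 6.01), and corpus and cauda differed by 1.23 times (1.19 to 1.28). Caput was low, and corpus and cauda lay closer to each other than to caput.

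The share of fibroblasts with a Col6a5 UMI gave the same order. After each cell was thinned to 1000 UMIs, the share was 9.14% in caput (5.41 to 14.2), 31.2% in corpus (27.2 to 35.4) and 40.5% in cauda (38.0 to 43.1), with exact Clopper-Pearson intervals in parentheses. Unthinned shares were 11.3%, 37.5% and 55.7%, and 0, 1 and 240 cells were left out as too shallow. Immune cells, the background for free RNA, had thinned shares of 0%, 1.94% and 13.9% (0 of 158 caput cells, with an exact upper limit of 2.31%). Unthinned immune shares were 0.633%, 5.79% and 33.1%. Median depths were 3613.5, 3339.5 and 3268 UMIs in the fibroblast gate and 3094.5, 2520.5 and 3067.5 in the immune gate.

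Col6a6, the neighbouring gene and another long type VI chain, was far less abundant. It had 8, 101 and 397 UMIs in caput, corpus and cauda fibroblasts, or 10.4, 49.99 and 57.9 CPM. The corpus level was 4.79 times (2.34 to 11.4) and the cauda level 5.55 times the caput level (2.79 to 12.9). The size call against corpus was lost with stricter gates, without the 5% of cells with most UMIs and with sums thinned to the smaller total, where 92, 96 and 38 corpus UMIs were left, and the call against cauda was lost with thinned sums (45 cauda UMIs). Ratios there stayed between 0.178 and 0.215 of caput to the other region.

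The 3 classical type VI chains, Col6a1, Col6a2 and Col6a3, did not share this pattern. Col6a1 was at 967, 751 and 1328 CPM, Col6a2 at 570, 461 and 1120 CPM and Col6a3 at 342, 206 and 440 CPM in caput, corpus and cauda fibroblasts. All 3 were lowest in corpus, where Col6a5 was high. The ratio of Col6a5 to Col6a1 UMIs was therefore 0.434 in caput (0.380 to 0.495), 2.43 in corpus (2.29 to 2.58) and 1.70 in cauda (1.65 to 1.74). Col6a2 to Col6a1 was 0.589, 0.614 and 0.844, and Col6a3 to Col6a1 was 0.353, 0.275 and 0.331.

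Col6a4, the third gene of the cluster on chromosome 9, was seen in another gate. It had 276 UMIs in caput epithelium (8.09 CPM), 5 in corpus and 4 in cauda epithelium, and 1, 3 and 6 in fibroblasts. In the caput immune gate it had 10 UMIs, or 16.8 CPM, above the epithelial level, while the 1 UMI in caput fibroblasts is 1.30 CPM. Within caput epithelium, principal and other cells held 140 of these UMIs (11.1 CPM).

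Among the gates with at least 50 cells, the fibril-surface collagens Col14a1 and Col16a1 were highest in fibroblasts in every region. Col12a1 was highest there in the corpus only. Of the UMIs of all fibril-surface chains in the caput library, 26.5% came from the fibroblast gate and 47.6% from the epithelial gate. In the corpus 65.0% and in the cauda 82.0% came from the fibroblast gate. Fibroblast-gated cells were 3.77%, 10.6% and 35.8% of kept cells in caput, corpus and cauda. Epithelial-gated cells were 71.8% of kept caput cells. Col14a1, a fibril-surface collagen, was at 684, 442 and 659 CPM in caput, corpus and cauda fibroblasts, and its caput to cauda ratio of 1.04 turned to 0.945 with TMM scaling. Col16a1 was at 65.2, 54.9 and 94.2 CPM and Col12a1 at 26.1, 42.1 and 37.9 CPM. In caput smooth muscle Col12a1 was at 100.4 CPM on 40 UMIs, above its caput fibroblast level.

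Of the proteoglycan collagens, Col15a1 was at 256, 254 and 513 CPM in fibroblasts, with a cauda level 2.01 times the caput level (1.74 to 2.33). Col18a1, whose end fragment is endostatin, was low in fibroblasts, at 23.5, 31.2 and 41.1 CPM. In the caput it was at 85.4 CPM in smooth muscle and 85.0 CPM in endothelium. Col8a1, a short-chain network collagen of vessels, was at 66.5, 20.3 and 49.7 CPM in fibroblasts.

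The counts of collagens called between gates are read beside the share of all genes called. In the caput 11 of 14 members with enough UMIs were called higher in fibroblasts than in smooth muscle, beside 6.53% of all genes, and in the cauda 8 of 23, beside 1.93%. Against endothelium 13 of 17 were called higher in caput fibroblasts (4.37% of genes) and 14 of 17 in corpus fibroblasts (9.63%). Against epithelium the counts were 14 of 24 in caput (1.91%), 17 of 19 in corpus (5.33%) and 22 of 23 in cauda (13.3%). No member was called higher in the other gate, where the share of genes was 1.99% and 0.49% for smooth muscle, 9.85% and 1.47% for endothelium, and 2.78%, 8.43% and 8.03% for epithelium. The cauda fibroblast gate held 6860121 UMIs and the cauda smooth muscle gate 221374, so its 23 members tested entered mostly through fibroblasts.

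Smooth muscle cells carried type I and III collagen at lower levels than fibroblasts, and more of it in the cauda. Col1a1 was at 696 CPM in caput (277 UMIs), 780 in corpus (92 UMIs) and 2999 in cauda smooth muscle (664 UMIs). Fibroblasts had 10.6 times the smooth muscle level in caput (9.41 to 12.0) and 6.29 times in cauda. Of 6 members compared between caput and cauda, 3 were called higher in cauda, beside 2.24% of all genes, and none higher in caput, beside 7.3%.

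The 3 were Col1a1, Col3a1 and Col6a5. Col1a1 was 4.31 times higher in cauda (3.74 to 4.98) and Col3a1 6.01 times (5.10 to 7.11), at 477 and 2868 CPM. Col1a2 was at 1672 and 5064 CPM, 3.03 times higher and not called. The fibroblast marker list was also higher in this gate in cauda, 3352 against 1923 CPM, and the immune gate of the cauda reached 1295 CPM of Col1a1. Their part in the smooth muscle values was not tested.

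Col6a5 had 0 UMIs in the 102 caput smooth muscle cells, with an exact upper limit of 3.55% for the share of cells with a UMI. It had 3 UMIs in corpus and 104 in cauda smooth muscle (470 CPM). With the caput count set to a floor of 3 UMIs, the cauda to caput ratio was 62.4, which is not the lower limit of an interval. In the cauda 25.5% of 47 smooth muscle cells deep enough for thinning had a UMI, against 13.9% of immune cells. The call needed at least 100 UMIs and was lost without the 5% of cells with most UMIs, at 249 CPM, and without cells carrying at least 3 pericyte genes, at 293 CPM.

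No type IV chain was past the size rule between smooth muscle and fibroblasts, in either direction. Col4a1 was at 329, 365 and 601 CPM in caput, corpus and cauda smooth muscle, and smooth muscle had 1.13 times the fibroblast level in caput (0.901 to 1.40) and 2.04 times in cauda (1.70 to 2.43). Col4a4 was at 239, 161 and 126 CPM in smooth muscle and at 218, 89.1 and 78.0 CPM in fibroblasts. Col4a5 was at 131, 102 and 158 CPM in smooth muscle against 151, 129 and 209 CPM, and Col4a6 at 35.2, 42.4 and 54.2 CPM against 61.3, 47.0 and 52.6 CPM. Fewer UMIs stood behind the smooth muscle values, 95, 19 and 28 for Col4a4 and 52, 12 and 35 for Col4a5. No direction is read from the values of Col4a5 and Col4a6, and corpus smooth muscle, with 38 cells, was not compared by the size rule.

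The endothelial gate had the highest level of the main type IV pair. In the caput this gate also held pericyte markers at 1315 CPM and smooth muscle markers at 986 CPM. Their part in the type IV values was not tested. Col4a1, the alpha-1 chain present in all basement membranes, was at 971 CPM in caput (1817 UMIs), 606 in corpus (158 UMIs) and 677 in cauda endothelium (68 UMIs). Caput endothelium had 3.33 times the fibroblast level (2.89 to 3.84) and 46.9 times the epithelial level (43.0 to 51.3), the former short of the size rule. After thinning, 54.9% of caput endothelial cells had a Col4a1 UMI, against 24.2% of fibroblasts and 1.90% of immune cells; unthinned shares were 84.1%, 61.3% and 10.1%.

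Col4a2 is the partner chain of Col4a1. Its ratio to Col4a1 was 0.394 in caput endothelium (0.360 to 0.429), 0.415, 0.393 and 0.444 in caput, corpus and cauda fibroblasts, and 0.450 in caput and 0.286 in cauda smooth muscle. Epithelial ratios were 0.565 (0.499 to 0.640), 0.540 and 0.636. The caput epithelial interval lay above the caput endothelial one.

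Ratios of Col4a4 and Col4a5 to Col4a1 were lower in caput endothelium than in caput fibroblasts, smooth muscle and epithelium. The intervals of caput fibroblasts and smooth muscle overlapped. Col4a3, Col4a4 and Col4a5 form the network known from kidney and lung, and Col4a5 with Col4a6 forms that of smooth muscle. The ratio of Col4a4 to Col4a1 was 0.0253 in caput endothelium (0.0185 to 0.0339), 0.746 in caput fibroblasts (0.606 to 0.915), 0.725 in caput smooth muscle (0.551 to 0.952) and 1.34 in caput epithelium (1.22 to 1.48). Col4a5 to Col4a1 was 0.0132 in caput endothelium (0.00844 to 0.0197) and 0.518 in caput fibroblasts (0.410 to 0.651). In the caput both chains were called higher in fibroblasts than in endothelium, by 8.86 times for Col4a4 (6.36 to 12.6) and 11.8 times for Col4a5 (7.55 to 19.1).

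These chains also differed between regions of the fibroblast gate. Col4a1 was at 292, 320 and 295 CPM in caput, corpus and cauda, with a cauda to caput ratio of 1.01 (0.879 to 1.16). Col4a4 was at 218, 89.1 and 78.0 CPM, the caput level being 2.79 times the cauda level. Col4a3 was at 58.7, 18.8 and 13.3 CPM on 45, 38 and 91 UMIs, 4.42 times higher in caput than in cauda, but with too few UMIs for the size rule. Col4a5 was at 151, 129 and 209 CPM and Col4a6 at 61.3, 47.0 and 52.6 CPM.

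**Figure D4:**
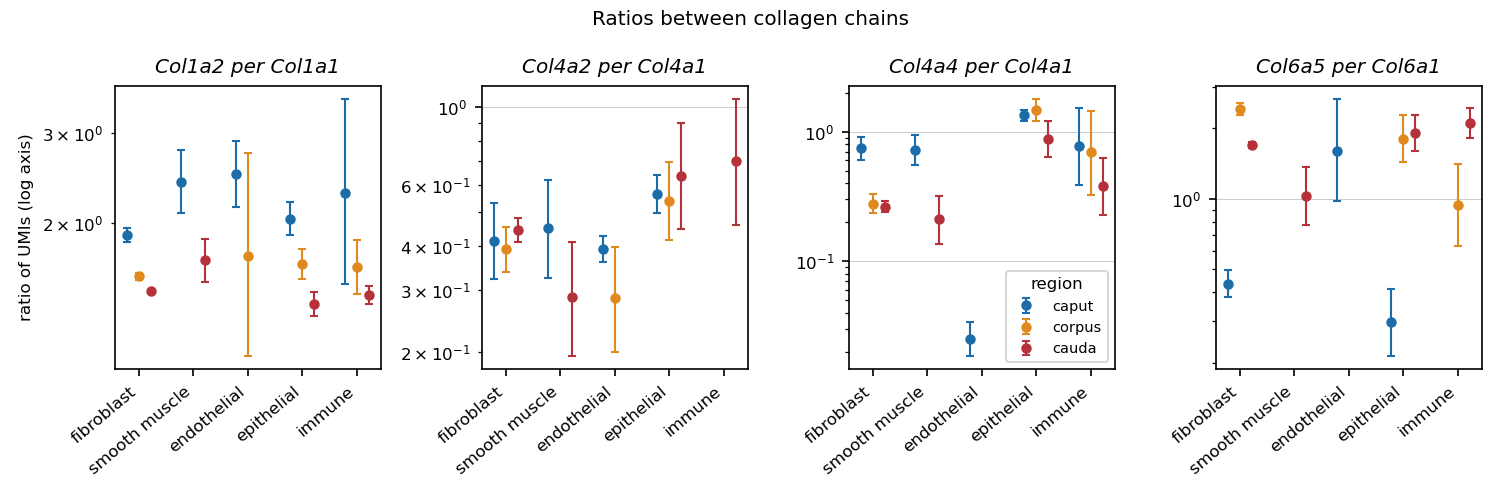
Ratio of UMIs of one collagen chain to its partner, on a log axis, by gate and region, with exact conditional 95% intervals for counting error; ratios with fewer than 10 UMIs of a chain are left out. Col4a4 to Col4a1 is near 0.025 in caput endothelium and between 0.2 and 1.5 in fibroblasts, smooth muscle and epithelium, and Col6a5 to Col6a1 in fibroblasts is below 1 in caput and above 1 in corpus and cauda.

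Between caput and corpus endothelium 1 of 9 members was called. Col8a1 was higher in caput, beside 3.1% of all genes, and none was higher in corpus, beside 0.516%. It had 161 UMIs in caput (86.0 CPM) and 3 in corpus (11.5 CPM), a ratio of 7.47 (2.51 to 36.6). With the caput sums thinned to the corpus total the ratio was 10.3 and the call was lost. Markers of lymphatic vessels were higher in the corpus gate, 4890 against 401 CPM, and pericyte markers in the caput gate, 1315 against 84.4 CPM, and their part in the ratio was not tested.

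Against epithelium, 8 of 21 members were called higher in caput endothelium, beside 4.45% of genes, and in corpus 1 of 10 (Col4a1), beside 1.02%. None was called higher in epithelium, beside 4.4% and 3.73%. The 8 were Col4a1, Col4a2, Col8a1, Col15a1, Col5a2, Col1a1, Col1a2 and Col3a1. With gates that needed 4 markers and a margin of 3, 4 of them were left, and Col1a1 in caput endothelium went from 135 to 49.8 CPM. Caput smooth muscle had 4 of 20 members called higher than epithelium (Col1a1, Col1a2, Col3a1 and Col4a1; 0.73% of genes, and 0.721% for the other direction, which held no member) and cauda smooth muscle 6 of 10, with Col6a1 and Col6a5 added (1.57%, and 4.78% in the other direction, again with no member). Against endothelium, 2 of 9 members were called higher in caput smooth muscle, Col1a1 and Col1a2, beside 1.17% of genes, and none was called higher in endothelium, beside 7.55%.

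Epithelial cells held little fibrillar collagen, and their fibrillar sums lay below those of the immune gate. The epithelial fibrillar sum was 133 CPM in caput, 389 in corpus and 1732 in cauda, and the immune sum was 271, 913 and 4467 CPM. Epithelium was thus at 0.491, 0.426 and 0.388 times the immune gate. Between caput and cauda epithelium 8 of 22 members were called higher in cauda, beside 2.36% of genes, and the same 8 of 13 between corpus and cauda, beside 0.902%. They were Col1a1, Col1a2, Col3a1, Col5a2, Col6a1, Col6a2, Col6a5 and Col15a1.

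All 8 were lower in cauda epithelium than in the cauda immune gate. Col1a1 was at 30.0, 102 and 505 CPM in caput, corpus and cauda epithelium and at 58.8, 248 and 1295 CPM in the immune gates. After thinning, 3.44%, 14.5% and 39.6% of epithelial cells and 6.96%, 19.6% and 59.5% of immune cells had a Col1a1 UMI; unthinned shares were 16.1%, 35.6% and 88.0% against 13.3%, 35.1% and 89.5%. These epithelial values are therefore not read as expression by epithelial cells, and the part of free RNA in them was not tested. Over whole libraries collagen took 1299, 5047 and 32191 CPM in caput, corpus and cauda.

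A few other epithelial calls rested on low counts. Col6a4 and Col27a1 were called higher in caput than in corpus epithelium, 2 of 21 members beside 6.08% of genes, and Col6a5 higher in corpus, beside 3.03%. Col6a4 was also called higher in caput than in cauda epithelium, 1 of 22 beside 6.81%, and no member was called higher in corpus than in cauda, beside 2.67%. Without epithelial cells holding a UMI of Dcn, Lum or Pdgfra, none of the 3 calls between caput and corpus was left. Col27a1 was at 13.6 CPM (173 UMIs) in caput epithelial cells with at least 2 proton-pump genes and at 2.22 CPM in principal and other epithelial cells.

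Several collagens were higher in basal cells than in the other epithelial cells. Basal cells were those with at least 2 of Krt5, Krt14, Krt15 and Trp63 and more of these than of proton-pump or ciliated markers, and numbered 645 in caput, 258 in corpus and 80 in cauda. The comparison with the 1483, 1286 and 320 principal and other epithelial cells was chosen after the data were seen. The type IV sum was 183, 129 and 179 CPM in basal cells and 41.4, 29.1 and 42.8 CPM in principal and other cells, 4.43, 4.43 and 4.18 times higher. The fibrillar sum was lower in basal cells, at 0.656, 0.628 and 0.617 times. Median depths were 8089, 6331 and 7494.5 UMIs in basal cells and 6246, 3424 and 5060 in principal and other cells, and their part in the ratios was not tested.

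In the caput 10 of 15 members were called higher in basal cells, beside 2.92% of all genes, and none higher in principal and other cells, beside 0.0379%. Here too a member entered only where it had 100 UMIs in one of the classes. Low members could thus enter only through the class where they were high, and be called only in that direction. In the corpus 2 of 6 were called (Col4a4 and Col18a1; 1.96% of genes), and in the cauda 1 of 7 (Col18a1; 2.54%). None was called in the other direction there, beside 0% and 0.15%. The caput count was 6 without cells holding a UMI of Dcn, Lum or Pdgfra. The cauda call was lost without the 5% of cells with most UMIs, for want of UMIs, and with TMM scaling, at 3.93 times.

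Col17a1, the transmembrane collagen of hemidesmosomes, was at 32.8, 24.8 and 26.2 CPM in caput, corpus and cauda basal cells (266, 64 and 28 UMIs). In principal and other cells it was at 4.12, 2.67 and 2.08 CPM, so the ratio was 7.97 in caput (5.90 to 10.9), 9.28 in corpus and 12.6 in cauda. Against the immune gate, basal cells were 3.91 times higher in caput (1.65 to 12.1), 7.11 in corpus (3.10 to 20.1) and 39.0 in cauda (9.83 to 338), on 5, 6 and 2 immune UMIs. The immune counts were small, and the caput interval reached below 2.

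Col7a1, the chain of the anchoring fibrils below basal cells, was at 29.8, 30.6 and 40.3 CPM in basal cells and at 4.04, 2.11 and 1.66 CPM in principal and other cells. The ratios were 7.36, 14.5 and 24.2 on 241, 79 and 43 basal UMIs. Of all Col7a1 UMIs, 82.9% of caput, 79.4% of corpus and 53.9% of cauda ones came from the epithelial gate. This gate held 71.8%, 44.6% and 10.6% of kept cells. In the caput it held 34126909 UMIs, where the whole library held 41500792. Among the gates with at least 50 cells, the caput level of Col7a1 was highest in smooth muscle, on 8 UMIs.

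Col18a1 was at 86.5, 94.5 and 154 CPM in basal cells and at 20.8, 18.0 and 29.9 CPM in principal and other cells. The ratio was 4.15 in caput (3.60 to 4.80), 5.25 in corpus and 5.13 in cauda. The caput ratio was 3.59 with TMM scaling and 3.62 without cells holding a UMI of Dcn, Lum or Pdgfra, under the size rule. Epithelial cells with at least 2 proton-pump genes were at 41.6, 64.7 and 56.9 CPM, between these classes. Basal cells lay above the immune gate, which had 18.5, 12.2 and 11.4 CPM.

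Minor type IV chains were also higher in basal cells. Col4a4 was at 72.6, 49.6 and 56.2 CPM in basal cells against 14.1, 11.7 and 5.82 CPM, with ratios of 5.15, 4.25 and 9.66. Col4a3 was at 28.4, 12.8 and 13.1 CPM against 3.57, 2.39 and 1.66 CPM. Col16a1 was at 66.7, 32.5 and 34.7 CPM against 8.87, 3.51 and 3.74 CPM, beside 65.2 CPM in caput fibroblasts. Fibroblast levels of Col4a3, Col4a4 and Col16a1, given above, were near or above their basal levels in every region. Col23a1, a transmembrane collagen, was at 24.7, 14.7 and 21.5 CPM against 2.93, 1.83 and 2.49 CPM. Col4a1 differed less, at 35.6, 32.2 and 39.3 CPM against 12.8, 6.75 and 11.6 CPM, and its caput basal level was 0.961 times the immune level (0.623 to 1.56).

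**Figure D5:**
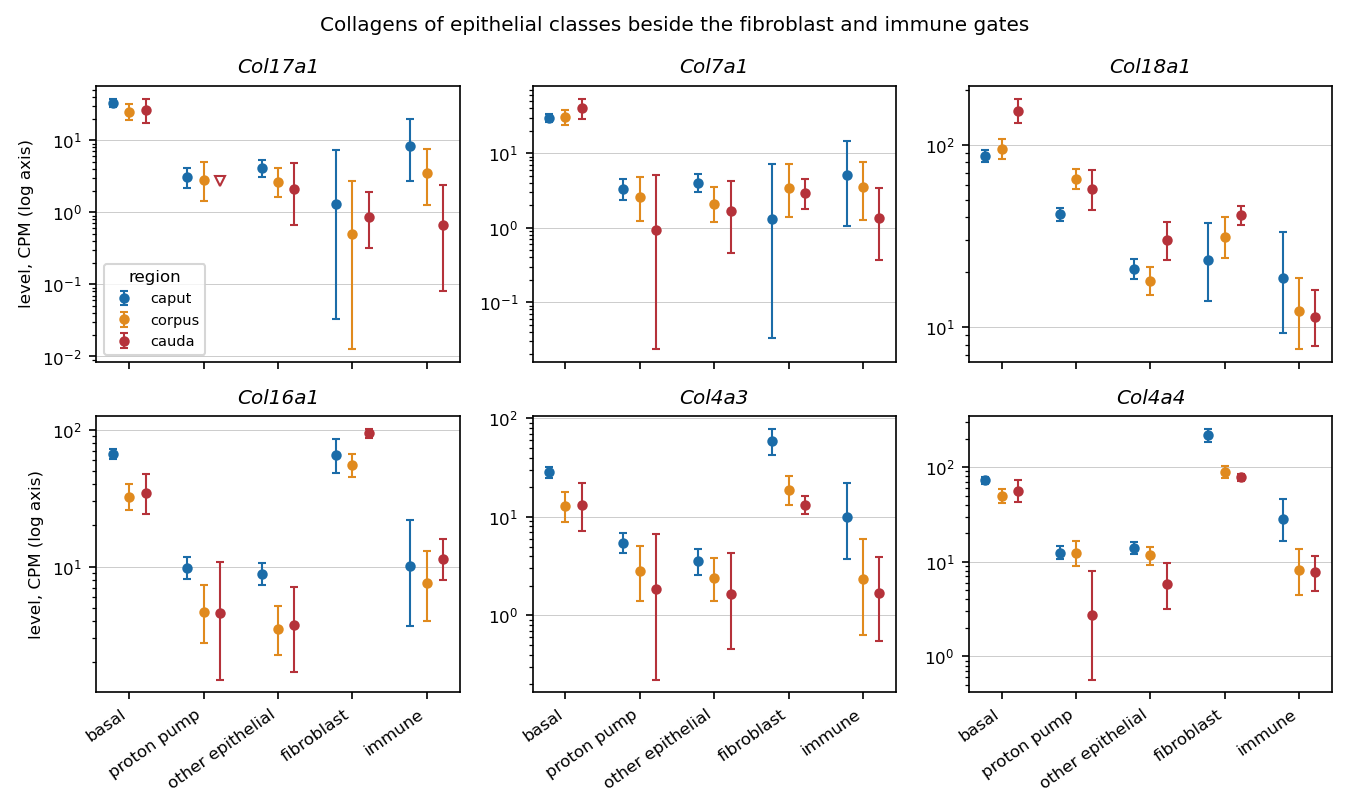
Level of 6 collagens in basal cells, epithelial cells with at least 2 proton-pump genes, other (principal and other) epithelial cells and the fibroblast and immune gates, in CPM on a log axis, by region, with exact Poisson 95% intervals for counting error; an open triangle marks a group with 0 UMIs, drawn at the floor of 3 UMIs. All 6 are higher in basal than in other epithelial cells in all 3 regions, and Col16a1, Col4a4 and Col4a3 are in fibroblasts near or above their basal levels.

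The 14 members under 100 UMIs in every gate and region could not be compared. Col13a1 had 196 UMIs in all cells, and its highest count was in caput endothelium (74 UMIs, 39.5 CPM). Col8a2 had 184 and Col9a1 84 UMIs in all cells, most of them in fibroblasts. The other 11, among them the cartilage chains Col2a1, Col9a2, Col9a3, Col10a1 and Col11a2, had at most 45 UMIs each.

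Genes whose levels were most like those of 3 members were ranked by Pearson correlation of log2(CPM + 10) over 13 groups of gate and region with at least 50 cells, among 12032 genes. The groups of a region share a library. For Col1a1 the 5 leading genes were Col3a1 (0.998), Col1a2 (0.996), Col6a2 (0.985), Col6a1 (0.979) and Igfbp6 (0.973), so 4 of them were collagens. For Col4a1 they were Col4a2 (0.994), Lims2 (0.979), Ehd2 (0.978), Dlc1 (0.976) and Tcaf1 (0.975). For Col17a1 they were Egfl6 (0.940), Perp (0.932), Mrpl2 (0.919), Krt5 (0.915), which also defined the basal class, and RP24-173L14.5 (0.910). With a pseudocount of 1 the leading 5 shared 4, 3 and 2 genes with these.

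Genes that fold, process, bind and break down collagen were examined as 5 lists. Between regions of the fibroblast gate no gene of any list was called in any of the 3 comparisons, beside 0.658% to 2.45% of all genes called there in 1 direction. In caput against cauda this covered 14 genes of chain folding and modification (median log2 ratio -0.17, with 13 of the 14 lower in caput), 7 of propeptide processing and cross-linking (-0.11), 5 receptors (-0.54), 6 of turnover (0.01) and 7 partners of type IV collagen in basement membranes (-0.68), with -0.01 over all genes. The fibrillar sum, higher in cauda by 2.22 times, was not past the size rule either. Serpinh1, the chaperone of procollagen in the endoplasmic reticulum, was for instance at 999.9, 1085 and 1144 CPM in caput, corpus and cauda fibroblasts.

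Against epithelium, genes of processing and cross-linking were called higher in fibroblasts for 4 of 5 in caput, 7 of 7 in corpus and 7 of 7 in cauda, beside 1.91%, 5.33% and 13.3% of all genes. Pcolce, which enhances removal of the propeptide, was at 941, 926 and 1015 CPM in fibroblasts and at 5.66, 11.9 and 34.9 CPM in epithelium. Lox, which starts cross-linking, was at 386, 487 and 627 CPM in fibroblasts and at 2.46, 4.49 and 14.9 CPM in epithelium. Adamts2, the protease that cuts the amino-terminal propeptide, was at 443, 388 and 452 CPM and Loxl2 at 353, 357 and 351 CPM in fibroblasts.

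Chain folding genes were called higher in fibroblasts than in epithelium for 2 of 14 in caput, 6 of 11 in corpus and 11 of 14 in cauda, beside 1.91%, 5.33% and 13.3% of all genes. P4hb, a subunit of prolyl 4-hydroxylase used for many other proteins, was similar in both gates, at 402, 420 and 423 CPM in fibroblasts and 347, 243 and 283 CPM in epithelium. P4ha2, a catalytic subunit, was at 179, 108 and 130 CPM in fibroblasts but at 348, 6.48 and 3.29 CPM in epithelium, so its level in epithelium was high in caput only. In the immune gate P4ha2 was at 207, 5.23 and 13.4 CPM, above its fibroblast level in caput. Turnover genes were called higher in fibroblasts than in epithelium for 3 of 6, 5 of 5 and 6 of 6, beside the same shares of all genes. Timp2, an inhibitor of metalloproteinases, was at 703, 1385 and 1580 CPM and Mmp14, a membrane collagenase, at 246, 351 and 408 CPM in fibroblasts.

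Receptors were spread over the gates. They were called higher in fibroblasts than in epithelium for 0 of 4, 1 of 3 and 4 of 5 genes in caput, corpus and cauda, beside 1.91%, 5.33% and 13.3% of all genes. Itgb1, the beta-1 integrin subunit, was at 607, 508 and 512 CPM in fibroblasts and at 1185, 1009 and 1292 CPM in smooth muscle. Itga1, its partner in a collagen receptor, was at 11.7, 20.3 and 31.3 CPM in fibroblasts, 171, 127 and 267 CPM in smooth muscle and 174, 134 and 89.6 CPM in endothelium. Ddr2, a kinase receptor for fibrillar collagen, was at 58.7, 96.0 and 85.4 CPM in fibroblasts, and Ddr1, its epithelial relative, at 12.2, 15.8 and 14.5 CPM in epithelium.

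Basement membrane partners were called higher in fibroblasts than in epithelium for 1 of 10, 7 of 12 and 7 of 7 genes in caput, corpus and cauda, beside 1.91%, 5.33% and 13.3% of all genes. Lama5 was called higher in corpus epithelium, beside 8.43%. Nid1, which links laminin to type IV collagen, was at 323, 365 and 375 CPM in fibroblasts and at 3.46, 4.35 and 8.77 CPM in epithelium. Lama4, a laminin chain of vessels and stroma, was at 62.6, 176 and 215 CPM in fibroblasts and at 154, 219 and 209 CPM in endothelium.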

How the data were processed

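Single-cell RNA libraries of 3 epididymal regions, 1 each, were analysed. The deposited values are whole UMI counts per gene and cell in 14845 cells, and each column names its region. Per the submitters' processing notes, STAR 2.7.3a, UMI-tools and the mouse build GRCm38.p6 were used; the sources do not give how cells were called. No value was normalized by the authors as far as the counts show: all are whole, the largest 3993.

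Cells with at least 200 detected genes were kept (4939 caput, 4831 corpus and 4785 cauda cells), with median depths of 5077, 2654 and 2198 UMIs. Gates were set by 10 markers each, and CPM were computed from summed counts with exact Poisson intervals, ratios with exact conditional binomial intervals and shares with Clopper-Pearson intervals, all at 95%. A count of 0 was set to a floor of 3 over the group. No replicate existed, so no test was made. The size rule was run on Poisson counts simulated from the caput and corpus fibroblast sums. This is the counting error that its intervals assume, so it cannot speak to variation between cells or animals. Of collagens, those with at least 100 UMIs in a gate and region are described, with full values for the 20 with most UMIs and those past the size rule; of each pathway list, the 4 with most UMIs and the largest calls; of like genes, the leading 5 that mark no gate. Background shares leave out gate markers in comparisons of gates or epithelial classes and keep them in comparisons of regions.

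Alternatives were other gate thresholds, 500 detected genes, a ceiling of 20% mitochondrial UMIs, leaving out the 5% of cells with most UMIs, TMM factors (edgeR 4.0.16, R 4.3.3), thinned sums, a minimum of 20 UMIs and a pseudocount of 1. The comparison of basal cells, the immune list without Cd52, the epithelial gate without cells holding fibroblast markers and the smooth muscle gate without pericyte markers were added after seeing the data. The members and lists were chosen with earlier results of these data known. Python 3.11.15, numpy 2.4.6, scipy 1.17.1 and pandas 2.3.3 were used. Repeats in the collagen proteins were not analysed here.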

Additional observations from a re-analysis of the deposited data

How the results depend on the processing

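Each region was 1 library, so no alternative speaks to variation between animals, and the smooth muscle, corpus endothelial and cauda basal values rest on few cells. No paired analysis was possible because each region is a single library, with no replicates to pair. Of 448 alternative counts of called collagens, 411 were within 1.5 times. Of 2190 alternative ratios 2120 were counted as unchanged, 69 lost the call and 1 turned. An uncalled ratio, of a gene or a sum, that changed direction but stayed within its main interval was counted as unchanged. TMM factors moved all genes by -0.53 to 0.42 (log2).

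Counts moved as follows, main values being those of the report. With stricter gates, the calls were 1 (fibroblasts, higher in corpus than caput), 2 (epithelium, caput over cauda), 4 (caput endothelium over epithelium) and 1 (corpus basal). With looser gates, 1 was higher in corpus epithelium than in fibroblasts. Without the 5% of cells with most UMIs, they were 1 (fibroblasts, corpus over caput), 2 (epithelium, corpus over caput), 5 and 5 (cauda epithelium over caput and corpus), 3 (cauda smooth muscle over epithelium), 1 (corpus basal) and 0 (cauda basal). With thinned sums, they were 1 and 1 (fibroblasts, corpus and cauda over caput), 0 (caput endothelium over corpus), 1 and 0 (caput epithelium over corpus and cauda). Without epithelial cells holding Dcn, Lum or Pdgfra, they were 0 and 0 (caput and corpus epithelium), 6 (caput basal) and 1 (corpus basal). Without pericyte-marker cells, they were 1 (caput smooth muscle over endothelium) and 3 (cauda smooth muscle over epithelium). With TMM, they were 1 (caput epithelium over endothelium), 1 (corpus basal) and 0 (cauda basal). With a minimum of 20 UMIs, they were 1 (fibroblasts, caput over cauda), 6 (smooth muscle, cauda over caput), 9 and 12 (caput smooth muscle over endothelium and epithelium), 2 (corpus endothelium over epithelium), 14 (cauda smooth muscle over epithelium), 1, 1 and 1 (corpus epithelium, cauda smooth muscle and cauda epithelium over fibroblasts), 11 (corpus basal) and 7 (cauda basal). Fewer or more UMIs passing the minimum are part of these changes by construction.

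Ratios of sums turned in 4 cases: type IV, caput fibroblasts to smooth muscle, 1.20 with TMM; type IV, corpus fibroblasts to endothelium, 1.19 with TMM against 0.888; fibrillar, corpus endothelium to epithelium, 0.928 with TMM against 1.34; fibrillar, caput to corpus endothelium, 0.755 with stricter gates against 1.33. Col14a1 in fibroblasts turned to 0.945 with TMM. Fibrillar sums of caput smooth muscle to endothelium were 3.62 with looser gates, 3.51 without pericyte-marker cells and 3.91 with TMM, and caput endothelium to epithelium was 3.31 with stricter gates. The smooth muscle caput to cauda fibrillar ratio was 0.184 with looser gates. The basal type IV ratio was 3.83 (caput) and 3.90 (corpus) with TMM, and in cauda 3.66 with looser gates, 4.49 without the 5% of cells and 3.20 with TMM. The basal ratio of other collagens was 4.39 without the 5% of cells and 4.24 without cells holding fibroblast markers in caput, and 5.72 without the latter in corpus. Other collagens, cauda fibroblasts to smooth muscle, were at 4.40 without pericyte-marker cells and 4.36 with TMM. The leading 5 genes like Col4a1 and Col17a1 shared 3 and 2 with a pseudocount of 1. The cause of the changes was not tested.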
